A study of Homo sapiens with 16 samples.

Results

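Constant MITF sites at gene ends are places near an end of a protein-coding gene where MITF was called on chromatin both with and without TGFB1. A peak of the MITF library from TGFB1-treated cells was a member when it lay on chromosomes 1 to 22 or X, overlapped a MITF peak of the vehicle library by at least 1 bp, and had its summit within 1 kb of either end of a RefSeq protein-coding gene. There were 1041 such sites among the 4968 MITF peaks on these chromosomes after TGFB1 (21.0%), and among 399028 peaks in all 10 peak lists of the study. The sites were thus chosen by measured values, the MITF peak calls of both lists and their distance to a gene end, and these are described below without a test.

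The study performed chromatin immunoprecipitation and sequencing in the human melanoma cell line A375, with antibodies to MITF, H3K27ac (acetylation of histone H3, found where promoters and enhancers are in use), JUNB and ATF3 (AP-1 superfamily factors) and Smad2/3 (the factors that the TGF-beta receptors activate). All cells were starved for 2 h. The TGFB1 group then received 10 ng/mL TGFB1 for 2 h, and the vehicle group 4 mM HCl with 1 mg/mL BSA for the same time. The 16 samples are 10 immunoprecipitated libraries, 1 for each antibody and treatment, and 6 inputs, which were not analysed here. The design speaks of technical triplicates, and whether they were pooled into these libraries is not given in the sources used here. No comparison therefore has a replicate that can be compared, no p-value was computed, and the 95% intervals in brackets cover counting error over sites or genes only. The samples carry 3 experiment dates. MITF has a date of its own, so antibody and date cannot be told apart between MITF and the other antibodies, while the vehicle and TGFB1 libraries of each antibody share a date. A peak does not show whether many cells held the factor weakly or few cells held it strongly.

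MITF is the transcription factor that directs the pigment cell lineage, and it belongs to a small family with TFEB, TFE3 and TFEC. These factors bind as dimers to the E-box CACGTG, and in the pigment lineage also to CATGTG. When the E-box is extended to TCACGTGA, or by another base on each side to the CLEAR element, it is known from promoters of lysosomal genes, where the family controls the production of lysosomes. Among the pigment cell markers MITF, SOX10, PAX3, PMEL and S100B carried H3K27ac within 1 kb of a gene end in vehicle, and MLANA, TYR, TYRP1 and DCT did not (5 of 9 acetylated). Of the markers of other cell types, KRT14 was acetylated among 3 of keratinocytes, CD3E among 3 of leukocytes, and 0 of 3 of endothelium.

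The promoters below carry the letters that the results turn on. All sequences are RefSeq's on GRCh38, written 5′ to 3′ on the strand of the gene, and the first set gives the 250 bases before the start site. Capitals mark the E-box CACGTG, an A/T-rich element of 8 bases (AACTTTAT), or an element of 11 bases (the letters ACTACA, then any 2 bases, then TCC), also where they read in reverse complement. The last is called the 11-base element below. LAMP1 is shown for its 5 E-boxes, TSC2 for 1 E-box between 2 copies of the 11-base element, MITF for 2 copies of that element without an E-box, VPS51 for AACTTTAT, and UCKL1 for 5 copies of ACTACA (lower case, read here as tgtagt) in a tandem repeat beside 1 E-box.
LAMP1 (chr13:113296989-113297238, plus strand): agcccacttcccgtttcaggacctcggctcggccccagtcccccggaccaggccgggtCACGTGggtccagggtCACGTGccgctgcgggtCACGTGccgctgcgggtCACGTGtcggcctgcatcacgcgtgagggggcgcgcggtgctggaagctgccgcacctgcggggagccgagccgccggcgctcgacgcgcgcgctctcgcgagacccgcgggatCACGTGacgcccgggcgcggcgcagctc
TSC2 (chr16:2047735-2047984, plus strand): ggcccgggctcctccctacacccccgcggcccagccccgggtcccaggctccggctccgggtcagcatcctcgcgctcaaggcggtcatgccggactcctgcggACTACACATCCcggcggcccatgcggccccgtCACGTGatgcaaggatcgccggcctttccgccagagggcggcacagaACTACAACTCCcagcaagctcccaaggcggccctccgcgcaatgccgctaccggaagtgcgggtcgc
MITF (chr3:69739214-69739463, plus strand): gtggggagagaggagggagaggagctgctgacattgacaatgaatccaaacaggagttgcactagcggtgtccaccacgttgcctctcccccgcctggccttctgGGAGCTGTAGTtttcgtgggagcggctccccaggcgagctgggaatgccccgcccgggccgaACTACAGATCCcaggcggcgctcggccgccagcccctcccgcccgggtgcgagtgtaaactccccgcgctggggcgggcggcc
VPS51 (chr11:65095964-65096213, plus strand): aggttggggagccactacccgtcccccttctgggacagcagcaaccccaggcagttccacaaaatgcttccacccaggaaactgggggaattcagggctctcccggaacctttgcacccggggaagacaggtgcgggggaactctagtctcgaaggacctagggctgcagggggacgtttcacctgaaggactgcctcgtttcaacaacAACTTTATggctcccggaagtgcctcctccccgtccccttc
UCKL1 (chr20:63956417-63956666, minus strand): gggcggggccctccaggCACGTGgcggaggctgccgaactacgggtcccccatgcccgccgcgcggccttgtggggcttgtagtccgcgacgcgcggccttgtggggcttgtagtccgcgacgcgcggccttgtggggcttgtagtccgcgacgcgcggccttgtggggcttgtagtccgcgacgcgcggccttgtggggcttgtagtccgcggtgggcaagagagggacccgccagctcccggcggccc

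The E-boxes are the letters known for MITF and TFEB. The 11-base element and AACTTTAT were picked after these promoters had been examined, so their shares are descriptions only. The 11-base element resembles the element known to be read by the zinc finger factor ZNF143. No factor is named for AACTTTAT.

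The next set shows short stretches around the match nearest to the MITF summit, written with the match in capitals on the strand given. The examples were picked and do not sort the elements by gene function. Those of the E-box are from lysosomal and nutrient sensing genes, and CACGTG was also in member promoters of GAPDH, CDK4 and ATF4.
MCOLN1 (chr19:7522598-7522627, plus strand): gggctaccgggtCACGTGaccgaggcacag
GALNS (chr16:88857104-88857133, minus strand): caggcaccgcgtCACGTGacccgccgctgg
ATP6V1G1 (chr9:114587699-114587728, plus strand): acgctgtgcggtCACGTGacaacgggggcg
RRAGC (chr1:38859867-38859896, minus strand): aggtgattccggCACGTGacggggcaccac
Those of the 11-base element are from an ESCRT gene and genes of the MITF family. It was also at the lysosomal gene CTNS and the nutrient sensing genes LAMTOR2 and SLC38A9.
CHMP4B (chr20:33811232-33811260, minus strand): gcgccactgACTACAACTCCcagtgggca
MITF (chr3:69739372-69739400, plus strand): ccgggccgaACTACAGATCCcaggcggcg
TFEB (chr6:41735713-41735741, minus strand): ctgagcgggACTACAAATCCcggcgtgcc
AACTTTAT stood under several of the strongest MITF peaks.
TFPT (chr19:54115645-54115674, minus strand): tttgaaacaacAACTTTATtagcacctggc
LARS2 (chr3:45388557-45388586, minus strand): gtcaaaacagcAACTTTATcgatagcgtcc
KIF3B (chr20:32277565-32277594, minus strand): tcaatttcaatAACTTTATtggcacacgag
RPL27 (chr17:42998252-42998281, minus strand): tattcgaatgaAACTTTATtagcagctcca
CATGTG, the other pigment lineage E-box, stood at the melanosome gene GPNMB.
GPNMB (chr7:23246701-23246730, minus strand): ctcggggaggatCATGTGatggtattaagc

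The sites lay mostly at transcription start sites. The median distance from the summit to the nearest gene end was 131 bp, with the middle of the distribution from 60 to 301 bp and a maximum of 977 bp. The table that gives strands covered 847 of the nearest genes, and at 803 of them (94.8%, 93.1 to 96.1%) the nearest end was the gene start. The sites touched 1262 of 19974 protein-coding genes (6.32%). Of the members, 801 had 1 gene with an end within 1 kb, 231 had 2 and 9 had 3. Many of the pairs were divergent promoters: among 178 members with 2 genes of known strand, 140 (78.7%, 72.1 to 84.0%) lay by gene starts on opposite strands. The largest numbers of sites were on chromosome 1, with 145, and chromosome 19, with 117. These counts were not set against the number of genes on each chromosome.

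Constant sites were closer to start sites than MITF sites called in a single treatment. The summit lay inside a RefSeq promoter window, which runs from 250 bases before to 50 bases after a start, for 540 members (51.9%, 48.8 to 54.9%). Of the 787 gene-end sites called with TGFB1 alone 29.6% (26.5 to 32.9%) did so, and of the 1034 called in vehicle alone 27.7% (25.0 to 30.5%). A start site lay within 100 bp of the summit for 35.4%, 23.4% and 23.1% of the sets in the same order. Within 1 kb the shares were 78.8%, 79.3% and 77.8%, so the sets had annotated starts about equally often and differed in how near they were. The single-treatment peaks were weaker, with median -log10 p values of 8.52 and 8.17 against 14.9 for the constant sites in the TGFB1 list, and the part of strength in this difference was not tested. As a description of the values that chose the members, 56.9% of the 1828 MITF TGFB1 peaks at gene ends were constant and 52.1% of the 3140 away from them.

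Sites lay on both sides of the 1 kb limit. Just inside it were sites at ZNF367 (977 bp from the end, fold enrichment 7.50), CTNNA3 (974 bp), ZNF436 (967 bp) and H4C8 (965 bp). Just outside it were constant sites at CYP1A1 (1006 bp, fold enrichment 4.51), VAT1 (1022 bp), RFX2 (1025 bp, 17.7) and PRKCE (1026 bp).

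MITF enrichment at these sites was of the same order in both libraries. The rule required a MITF peak in each, so a site absent from 1 list could not be a member. Fold enrichment is the authors' peak caller value, reads stacked at the summit relative to the background that the caller expects there, and each list was called separately. Across the members it ran from 2.83 to 81.1 with TGFB1 (median 7.62) and from 3.01 to 90.9 in vehicle (median 7.80). The depths implied by the peak values, under the assumptions given below, were 7.40 and 7.39 M (mega) reads. The fold enrichment ratio of TGFB1 to vehicle had a median of 0.966, and 719 members (69.1%) lay within 1.5-fold and 1026 (98.6%) within 3-fold of equality. The read pileup recovered from the peak values had a median of 19.0 reads with TGFB1 and 17.0 in vehicle. Its ratio lay within 1.5-fold for 845 members (81.2%), with 151 above and 45 below, and its median was 1.09. Summits moved by a median of 30.0 bp between the lists, and by at most 50 bp at 70.3% (67.5 to 73.0%) of the members, compared with 77.7% (75.6 to 79.6%) of the 1635 constant sites away from gene ends.

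**Figure D1:**
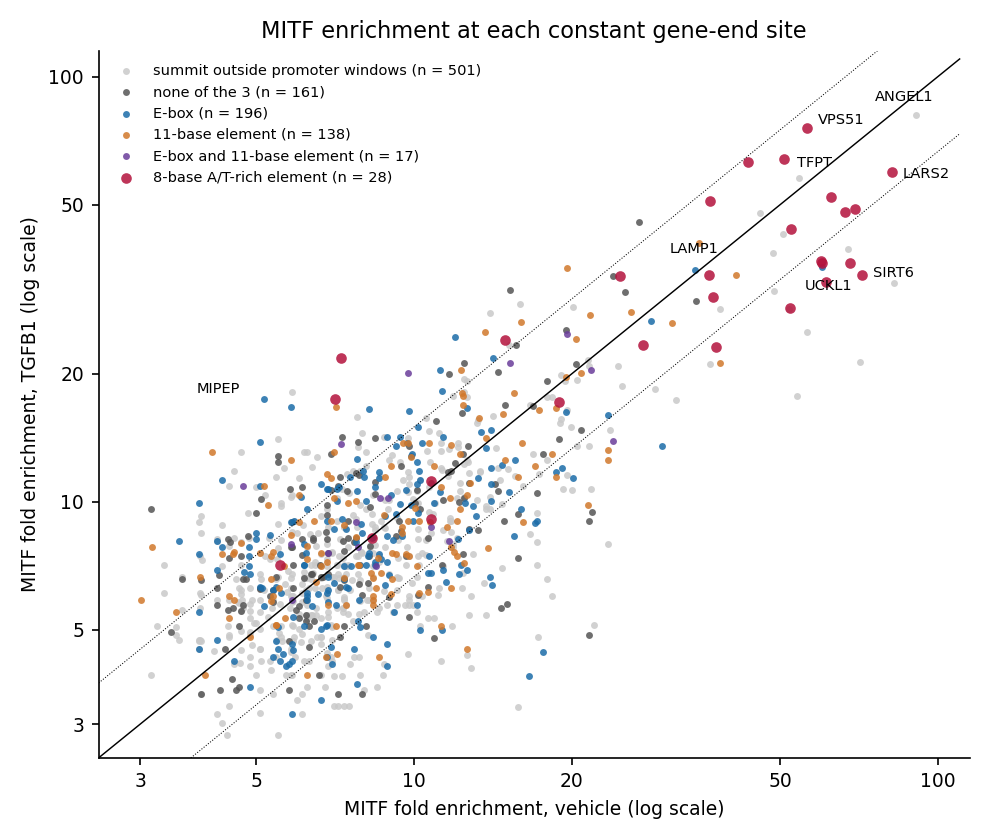
MITF fold enrichment of the 1041 constant gene-end sites in the vehicle library (horizontal axis, log scale) and the TGFB1 library (vertical axis, log scale), each point 1 site, coloured by the elements in the promoter window that holds the summit. The solid line marks equal values and the dotted lines a 1.5-fold difference; 719 sites lie between the dotted lines, and most of the 28 sites with the 8-base A/T-rich element AACTTTAT are at the upper right.

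The strongest constant sites lay at genes of many functions. By -log10 p with TGFB1 the top 12 were led by TFPT, which encodes a subunit of the INO80 chromatin remodelling complex and shares its promoter with the splicing factor gene PRPF31 (chr19:54114999-54115892, fold enrichment 64.1 with TGFB1 and 50.9 in vehicle, pileups of 212 and 209 reads). VPS51, a subunit of a complex that tethers vesicles returning from endosomes, followed with 75.7 and 56.3 (chr11:65095975-65096364). UCKL1, of the uridine kinase family, had 35.7 and 60.0 (chr20:63956345-63956716), and ANGEL1 had the highest fold enrichment of all members, 81.1 and 90.9 (chr14:76812611-76813121). All 4 had high values in both treatments, where the rule required a MITF peak in each.

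The next sites were at NDUFA11, a subunit of respiratory complex I (48.8 with TGFB1 and 69.3 in vehicle), TMEM79 (51.1 and 36.8), and LARS2, the mitochondrial leucyl-tRNA synthetase (59.7 and 81.8). CDK12, a kinase of RNA polymerase II, had 48.2 and 66.5, and the kinesin motor gene KIF3B had 62.9 and 43.4. The last 3 were SIRT6, a chromatin deacetylase (34.1 and 71.8), the ribosomal protein gene RPL27 (52.2 and 62.6) and USP5, a deubiquitinase (47.7 and 45.7). The fold enrichments of SIRT6 differed by more than its pileups, which were 165 and 183 reads. Over the 12 sites the pileup ratio of TGFB1 to vehicle ran from 0.855 to 1.15, and all 12 carried H3K27ac in both treatments.

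A few members differed between the treatments by more than 3-fold, 5 higher and 10 lower with TGFB1. Among members with a fold enrichment of 10 or more in either list, MIPEP, a mitochondrial peptidase gene, had the highest ratio (17.4 with TGFB1 and 5.16 in vehicle). ZNF527 (13.1 and 4.12), the homeobox gene PKNOX1 (18.1 and 5.85) and AFG1L (21.8 and 7.27) followed. The pileups moved less, at 31 and 23 reads for MIPEP, 23 and 16 for ZNF527, 26 and 14 for PKNOX1, and 36 and 29 for AFG1L. At the other extreme, D2HGDH, which encodes the enzyme that oxidises D-2-hydroxyglutarate, had 3.28 and 15.8 (15 and 23 reads). BROX had 4.86 and 21.6, C11orf68 had 5.13 and 22.1 (20 and 46 reads), and PET117, an assembly factor of respiratory complex IV, had 3.89 and 16.6 (27 and 38 reads). The BROX site, with pileups of 8 and 35 reads and summits 377 bp apart, is 1 of 9 members whose vehicle peak also overlapped another TGFB1 peak. These differences rest on 1 library for each treatment.

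E-boxes were frequent in the promoters of constant sites. Of the 820 members with an annotated start within 1 kb, 268 (32.7%, 29.6 to 36.0%) had CACGTG in a promoter window there, where 8.34% of all 22132 promoter windows of protein-coding genes hold it. For the 540 members whose summit lay inside the window the share was 40.6% (36.5 to 44.7%). It was 6.86% (6.41 to 7.35%) in the 11333 windows with vehicle H3K27ac and no MITF peak. The extended form TCACGTGA, which contains CACGTG, was in 20.7% (17.5 to 24.4%) of the 540, against 1.27% of all windows and 0.379% of acetylated windows without MITF. The still longer CLEAR element, with G before and C after TCACGTGA, was in 9.26%, against 0.497% of all windows. The pigment lineage E-box CATGTG was in 11.9% (9.39 to 14.9%), close to the 8.93% of all windows, but above the 5.54% (5.13 to 5.98%) of acetylated windows without MITF. All motifs were searched on both strands. A member was counted once if any of its windows had the letters, while the background shares count single windows.

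Control letters did not show this difference. The palindrome GACGTC, with the same base composition as CACGTG, was in 8.70% of the 540 members and 7.89% of the acetylated windows without MITF. A palindrome of the same kind, ACCGGT, was in 2.04% and 2.42%. The third, which reads AGCGCT, was in 8.89% and 9.53%, and all 3 intervals of the difference included 0. CAGCTG, an E-box not known for MITF, was in 15.6% and 16.8%. The AP-1 letters TGANTCA were in 4.44% (3.00 to 6.53%) and 4.54%. The mean GC content of member windows was 64.7%, compared with 65.6% in acetylated windows without MITF.

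Constant sites held E-boxes more often than sites called in a single treatment. CACGTG was in the window of 24.5% of 233 TGFB1-only sites and 25.9% of 286 vehicle-only sites, which is 16.1 (8.93 to 22.7) and 14.7 (7.95 to 21.0) percentage points below the constant sites. For TCACGTGA the values were 5.15% and 6.64%, lower by 15.6 (10.7 to 19.8) and 14.1 (9.35 to 18.4) points. The single-treatment peaks were weaker. Peaks up to a -log10 p of 11.6 were also taken alone. There the CACGTG share was 39.0% (31.2 to 47.4%) of 136 constant, 22% (16.6 to 28.5%) of 182 TGFB1-only and 21.6% (16.7 to 27.5%) of 222 vehicle-only sites. Their median -log10 p values were 8.97, 8.41 and 7.90 in the same order, and the constant sites were limited by their TGFB1 peak alone. Strength was thus not matched, and its part in the E-box difference was not tested.

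The E-boxes lay close to the MITF summits. The median distance from the summit to the nearest CACGTG was 22.5 bp, and 168 of 219 (76.7%, 70.7 to 81.8%) lay within 50 bp. TCACGTGA was nearer still, at a median of 8.50 bp with 94.6% (88.8 to 97.5%) within 50 bp. For the 3 control palindromes, in the order given above, the medians were 73.5, 59.5 and 58.0 bp, and 25.5%, 36.4% and 43.8% lay within 50 bp. At MCOLN1 the E-box printed above was 1.5 bp from the summit, and at LAMP1 the nearest of the 5 was 16.5 bp away.

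**Figure D2:**
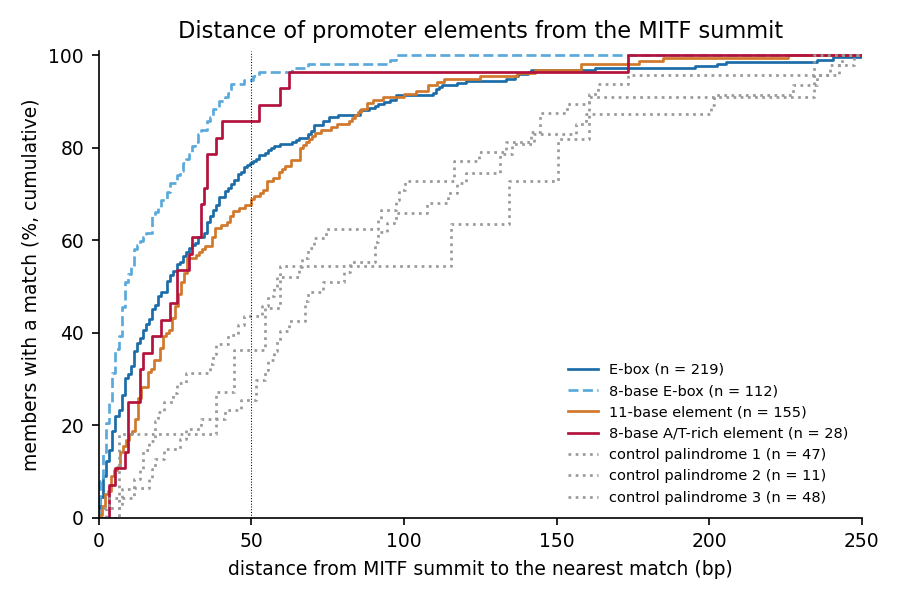
Cumulative share of members (vertical axis, %) by the distance from the MITF summit to the nearest match of each element (horizontal axis, bp), for members whose promoter window holds the summit and the element; the vertical dotted line is at 50 bp. The 8-base E-box is TCACGTGA, the A/T-rich element is AACTTTAT, and the control palindromes are numbered in the order in which the text names them; their curves rise later than those of the other elements.

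The 11-base element was the other frequent one. It was in a window of 155 of the 540 members (28.7%, 25.0 to 32.7%), against 2.45% of all windows and 1.69% (1.47 to 1.95%) of acetylated windows without MITF. The TGFB1-only sites had it in 14.2% and the vehicle-only sites in 13.6%, lower by 14.5 (8.30 to 20.1) and 15.1 (9.30 to 20.3) points. It was rarer at peaks of the other factors with TGFB1 whose summit lay in a window. The shares were 3.25% of 2309 JUNB, 3.28% of 1618 ATF3 and 0.900% of 778 Smad2/3 peaks. The median distance to the MITF summit was 27 bp, and 69.0% (61.4 to 75.8%) lay within 50 bp. The element seldom stood beside an E-box: 17 members had both, 138 had the 11-base element without CACGTG or AACTTTAT, and 196 had CACGTG alone of the 3.

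AACTTTAT was rare but stood under the strongest peaks. It was in a window of 28 of the 540 members (5.19%, 3.61 to 7.39%), against 0.791% of all windows and 0.300% of acetylated windows without MITF. Of the TGFB1-only and the vehicle-only sites 1 each had it. Of the 17 members in a window with a -log10 p of at least 150, 14 had it, and of the 135 with the lowest -log10 p none did (0 of 135, upper bound 2.77%). This relation was seen in the same promoters in which the letters were found. The 28 sites had a median fold enrichment of 34.0 with TGFB1 (range 7.11 to 75.7) and 40.6 in vehicle (5.55 to 81.8), against 8.07 and 7.93 for the E-box class, 8.72 and 9.04 for the 11-base element, and 8.13 and 7.34 for members with none of the 3. The element lay at a median of 25.5 bp from the summit and ran against the direction of the gene at 23 of the 28. Of the 12 strongest sites named above 10 had their summit in a promoter window. Of these 9 held AACTTTAT, and UCKL1 and NDUFA11 held CACGTG. The UCKL1 E-box lay 118 bp from the summit and that of NDUFA11 64.5 bp, where AACTTTAT lay at 9.50 bp. INKA2, ASPSCR1, SNX1 (a retromer-associated sorting nexin), PGS1, MRPS14 (a mitochondrial ribosomal protein), PRKAB2 and UBE2F came next among the 28, with -log10 p from 174 to 127 with TGFB1.

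**Figure D3:**
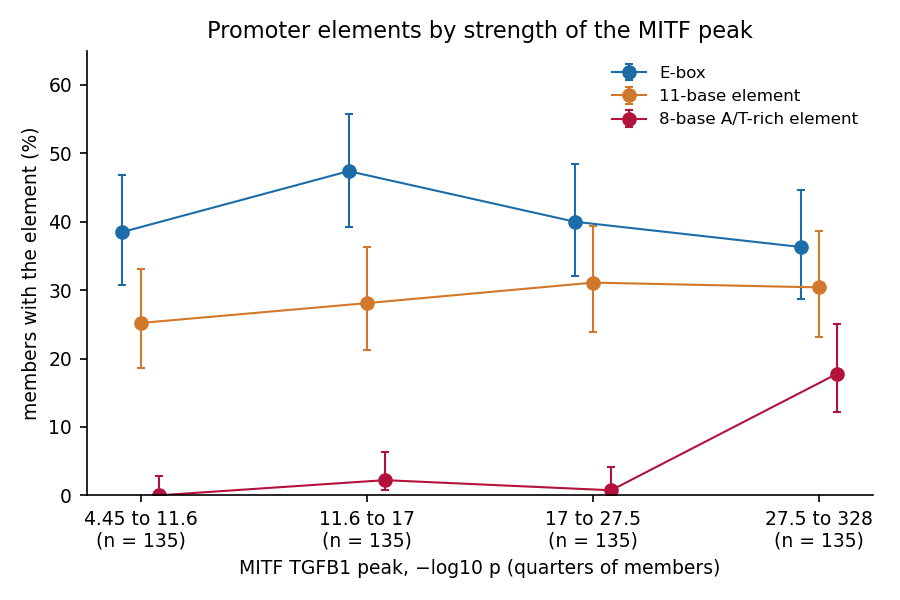
Share of members with each element in the promoter window that holds the summit (vertical axis, %) in 4 equal groups by -log10 p of the MITF TGFB1 peak (horizontal axis, 135 members each), with 95% Wilson intervals as bars. The E-box CACGTG stays between 36.3% and 47.4% and the 11-base element between 25.2% and 31.1%, while AACTTTAT is at 0, 2.22 and 0.741% in the weaker groups and at 17.8% in the strongest.

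E-box and 11-base element shares had overlapping intervals across the 4 groups. Among the very strongest sites the E-box share was lower, with an interval that still overlapped most of the groups. CACGTG was in 38.5%, 47.4%, 40.0% and 36.3% of the members from the weakest to the strongest group of 135, and the 11-base element in 25.2%, 28.1%, 31.1% and 30.4%. At a -log10 p of at least 50 CACGTG was in 22.4% (13.6 to 34.7%) of 58 members, an interval below that of the second group (39.2 to 55.8%), and the 11-base element in 29.3% (19.2 to 42.0%). At 150 or more they were in 3 and 1 of the 17 members. Of the 540 members 379 (70.2%) had at least 1 of the 3 elements and 161 had none. No sequence was analysed for the other members or for sites away from gene ends.

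Constant sites lay at a larger share of lysosomal genes than of all protein-coding genes. A constant site lay within 1 kb of an end at 19 of 49 genes for lysosomal enzymes and membrane proteins (38.8%, 26.4 to 52.8%), where all protein-coding genes gave 6.32% and the 13160 genes with vehicle H3K27ac at an end gave 9.49%. All 49 were acetylated. LAMP1, the abundant lysosomal membrane glycoprotein, had the strongest (chr13:113296942-113297419), with a fold enrichment of 35.2 with TGFB1 and 34.3 in vehicle. MCOLN1, the calcium channel of the lysosomal membrane, had 15.0 and 10.2, HEXA, a subunit of beta-hexosaminidase, had 12.9 and 16.9, and GALNS, a sulfatase, had 10.1 and 14.0. These genes had values of the same order in both libraries, where the rule required a MITF peak in each.

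Further genes of the list with a site included CLCN7, NAGLU, PPT1, ASAH1, CTSA, CTNS, GLA, CD63, GUSB, CLN3, GAA, NEU1, PIP4P1 and CTSL. CTSL had the lowest values with TGFB1, a fold enrichment of 3.61, and 5.07 in vehicle. Of the 13 of the 19 genes whose site lay in a promoter window 10 had CACGTG there, as did 40.6% of the 540 members. Smad2/3 of TGFB1-treated cells overlapped 5 of the 19 sites, against 18.5% of all members.

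The proton pump and the nutrient sensors of the lysosome were covered as well. The V-ATPase, which acidifies the lysosome, had constant sites at 9 of 17 subunit genes (52.9%, 31.0 to 73.8%). ATP6V1G1 had 11.0 with TGFB1 and 10.1 in vehicle, ATP6V1H 11.4 and 9.76, ATP6V1C1 12.1 and 6.38, and ATP6V0B 7.83 and 4.30. These 4 have the highest -log10 p with TGFB1 of the list. Of the others ATP6V0E1 and ATP6V1F had higher fold enrichment with TGFB1 and ATP6V0C, ATP6V1A and ATP6V0D1 had lower. At each of these the pileups ran the other way. They were 18 and 20 reads at ATP6V0E1 and 15 and 18 at ATP6V1F. At ATP6V0C they were 20 and 16, at ATP6V1A 19 and 18, and at ATP6V0D1 18 and 15. The ATP6V1C1 pileups, 17 and 22 reads, also ran against its fold enrichment. Those of ATP6V1G1, ATP6V1H and ATP6V0B were higher with TGFB1, as was their fold enrichment. The 4 of the 9 sites that lay in a promoter window all had CACGTG there, as did 40.6% of the 540 members. Genes of lysosomal nutrient sensing and mTORC1, the kinase complex that is switched on at the lysosome, had sites at 14 of 30 (46.7%, 30.2 to 63.9%).

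TSC1 and TSC2, which encode the complex that restrains mTORC1, had fold enrichments of 25.3 and 24.8 with TGFB1 and 19.5 and 19.6 in vehicle. NPRL2, a subunit of the GATOR1 inhibitor, had 17.8 and 11.9, and RRAGC, a Rag GTPase, had 13.5 and 29.7. The other genes were FNIP1 and FLCN (the folliculin complex), LAMTOR1, LAMTOR2 and LAMTOR5 (the Ragulator scaffold), RRAGB and RRAGD, MLST8, RHEB and SLC38A9. Of the 9 sites in a promoter window 5 had CACGTG and 3 had the 11-base element, against 40.6% and 28.7% of the 540 members. TSC2 had both and TSC1 had neither of them. Smad2/3 with TGFB1 overlapped 1 of the 14 sites and 2 of the 9 at V-ATPase genes, against 18.5% of all members.

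**Figure D4:**
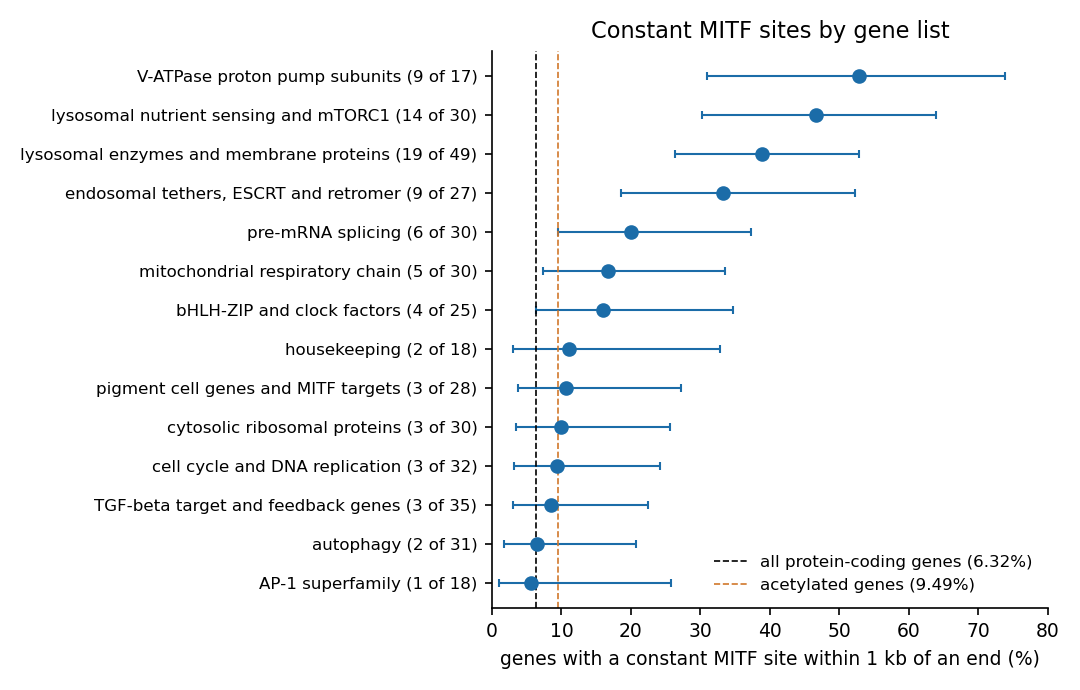
Share of the genes of each list that had a constant MITF site within 1 kb of an end (horizontal axis, %), with the count beside the name and 95% Wilson intervals as bars. The dashed lines mark 6.32% of all protein-coding genes and 9.49% of genes acetylated in vehicle; the intervals of the 4 lists at the top start at 18.6% or more.

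Endosomal genes were also above both background shares. Tethers, ESCRT and retromer genes had sites at 9 of 27 (33.3%, 18.6 to 52.2%), led by VPS51. CHMP4B, of the ESCRT-III filament, had 27.5 with TGFB1 and 21.6 in vehicle, RAB7A, the GTPase of late endosomes, 20 and 11.6, and VPS33A, of the HOPS tether, 17.7 and 17.9. The other 5 were RAB5A, VPS11, VPS16, VPS37B and VPS41. Here 8 sites lay in a promoter window, of which 4 held CACGTG, 2 the 11-base element and 1 AACTTTAT. Of the 540 members in a window 40.6%, 28.7% and 5.19% held them, and counts this small do not set the list apart. Gene-end MITF sites of a single treatment lay at further endosomal genes, TGFB1-only at 3 and vehicle-only at 4. The numbers were 3 and 7 for lysosomal enzymes and membrane proteins, 1 and 1 for V-ATPase, and 0 and 4 for nutrient sensing. Their background shares were not computed, so the coverage is not shown to be particular to constant sites.

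The family of MITF with its relatives that read E-boxes, and factors of the circadian clock, had sites at 4 of 25 genes (16.0%, 6.40 to 34.7%). They were MAX, the partner of MYC (19.4 with TGFB1 and 12.5 in vehicle), MITF itself (12.9 and 18.3, chr3:69739218-69739505), TFEB (13.1 and 7.02) and the clock repressor NR1D1 (7.85 and 3.16). The sites at MITF, TFEB and NR1D1 lay in promoter windows with the 11-base element and without CACGTG. At NR1D1, a nuclear receptor, CATGTG was nearer to the summit (11.5 bp) than the 11-base element (88.0 bp).

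Apart from splicing genes, the other lists had intervals that included at least 1 of the background shares. Splicing genes had sites at 6 of 30 (20%, 9.51 to 37.3%), a lower bound just above the 9.49% of acetylated genes. The count was 3 with the nearest gene alone, 3 at a -log10 q of at least 5 and 1 at a fold enrichment of at least 6 in both lists, so the place of this list above the background rests on the main settings. SNRPA, at 11.4 and 13.2, shares the divergent promoter of ACTMAP. Respiratory chain genes had them at 5 of 30, with NDUFS7 at 7.62 and 7.90, and ribosomal protein genes at 3 of 30, led by RPL27. Cell cycle genes had them at 3 of 32, including the DNA ligase gene LIG1 (10.2 and 12.5) and CDK4 (7.47 and 4.84). Autophagy genes had them at 2 of 31, GABARAP (13.7 and 12.1) and ATG3 (3.17 and 5.85), and housekeeping genes at 2 of 18, GUSB (6.78 and 6.36) and GAPDH (4.16 and 5.77).

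Pigment cell genes had constant sites at 3 of 28 (10.7%, 3.71 to 27.2%): GPNMB, a melanosome glycoprotein (11.1 with TGFB1 and 12.7 in vehicle), HIF1A (11.4 and 7.23) and MC1R, the melanocortin receptor (4.15 and 4.54). TYR, TYRP1, DCT, PMEL and MLANA had none, and of these only PMEL was acetylated at an end. TGF-beta target and feedback genes had sites at 3 of 35 (8.57%, 2.96 to 22.4%). They included the far end of COL7A1 (8.21 and 4.84, with pileups of 39 and 19 reads) and ID1 (6.59 and 5.46). The COL7A1 site also lay within 1 kb of an end of UCN2. AP-1 superfamily genes had a constant site at 1 of 18, ATF4 (5.49 and 9.16).

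Nearly all constant sites lay on acetylated chromatin in both treatments. H3K27ac overlapped 93.9% (92.3 to 95.2%) of the members in vehicle and 94.3% (92.8 to 95.6%) with TGFB1, where all MITF TGFB1 peaks gave 67.5% and 68.7%, and 966 members (92.8%) had it in both. Constant MITF sites away from gene ends had it at 48.6% and 49.5%, lower by 45.4 (42.5 to 48.1) and 44.8 (41.9 to 47.5) percentage points. Gene-end MITF sites of a single treatment had it about as often as the members, at 94.8% in vehicle for TGFB1-only sites and 96.6% for vehicle-only sites. Of the 1262 genes with a constant site 99.0% were acetylated at an end in vehicle.

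JUNB was called at more of the constant sites with TGFB1 than in vehicle. It overlapped 22.2% (19.8 to 24.8%) in vehicle and 47.4% (44.3 to 50.4%) with TGFB1, where all MITF TGFB1 peaks gave 34.2% and 50.2%. The share was also higher with TGFB1 at gene-end sites of a single treatment, by 21.0 points (to 39.0%) for TGFB1-only and 22.2 points (17.8% to 40.0%) for vehicle-only sites, against 25.2 points for the members, and the difference between these gains was not tested. At 306 members (29.4%, 26.7 to 32.2%) JUNB was called with TGFB1 alone and at 44 (4.23%) in vehicle alone. Constant sites away from gene ends had JUNB at 40.9% and 50.0%, and JUNB with TGFB1 alone at 11.6% (10.2 to 13.3%). The members therefore lay 18.7 points below them in vehicle (interval of the difference -22.1 to -15.1) and 2.67 points below with TGFB1 (-6.54 to 1.21). With the MITF summit required inside the JUNB peak the latter was 9.39 points below (-13.2 to -5.56), and with the 5000 strongest JUNB peaks 11.5 points below (-13.5 to -9.51). The implied depth of the JUNB libraries rose from 34.1 to 47.7 M reads, and its part in these values was not tested. Few of them were among the strongest JUNB peaks: with the 5000 JUNB peaks of highest -log10 p the share was 2.59% in vehicle and 2.69% with TGFB1.

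ATF3 overlapped 9.89% (8.23 to 11.9%) of the members in vehicle and 28.8% (26.1 to 31.6%) with TGFB1, against 13.9% and 36.2% of all MITF TGFB1 peaks. Its implied depth was 6.37 M reads in vehicle and 28.1 M with TGFB1, so the depths moved with the shares and their part was not tested. With the 5000 strongest ATF3 peaks of each list the shares were 2.88% (2.03 to 4.08%) and 3.46% (2.51 to 4.75%). Constant sites away from gene ends had ATF3 at 18.8% and 40.6%, so the members were lower in both treatments. JUNB and ATF3 were both present with TGFB1 at 223 members (21.4%), against 31.2% of all MITF TGFB1 peaks. At 424 members (40.7%) none of JUNB, ATF3 and Smad2/3 was called with TGFB1, close to the 40.4% of all MITF TGFB1 peaks.

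Smad2/3 was at few of the constant sites in vehicle and at more with the ligand. It overlapped 16 members (1.54%, 0.948 to 2.48%) in vehicle and 193 (18.5%, 16.3 to 21.0%) with TGFB1, against 3.08% and 25.8% of all MITF TGFB1 peaks, at implied depths of 9.37 and 10.2 M reads. Constant sites away from gene ends had it at 29.8% with TGFB1, 11.2 points more (the members' difference ran from -14.4 to -7.96). Vehicle-only gene-end sites had it at 24.1%, 5.54 points more (-9.05 to -2.02), and TGFB1-only sites at 19.8%, a difference that included 0 (-4.97 to 2.33). The weakest 261 members had it at 24.9% (20 to 30.5%) and the strongest 260 at 14.6% (10.8 to 19.4%). Smad2/3 summits lay a median of 105 bp from the MITF summits of members and 55.0 bp from those away from gene ends.

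**Figure D5:**
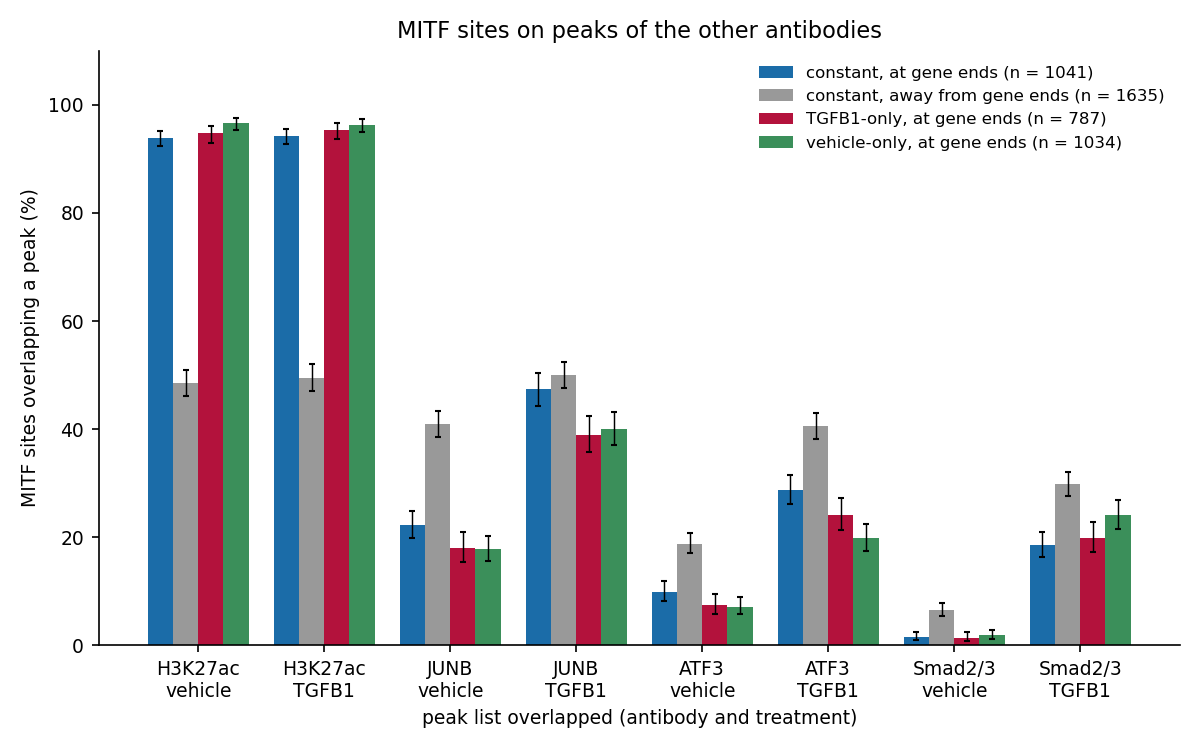
Share of MITF sites that overlapped a peak of each other antibody and treatment by at least 1 bp (vertical axis, %), with 95% Wilson intervals as bars, for constant sites at gene ends and away from them and for gene-end sites of a single treatment. All 3 gene-end sets reach 93.9% or more with H3K27ac, and the constant gene-end sites rise from 22.2% with JUNB in vehicle to 47.4% with TGFB1.

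Members with strong Smad2/3 binding were few and mixed. The highest Smad2/3 fold enrichment with TGFB1 at a member was 25.3 at CYP1B1, a cytochrome P450 gene, whose MITF fold enrichment was 7.10 with TGFB1 and 7.13 in vehicle. DLX2, a homeobox gene, had 20.1, the COL7A1 site 17.1 and PRKAB2, a subunit of the energy sensor AMPK, 14.9. MITF enrichment was low at DLX2 (6.20 and 7.16) and high at PRKAB2 (32.8 and 61.2), which also carries AACTTTAT. Of these 4 named sites PRKAB2 was the only one with Smad2/3 in vehicle as well.

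The element in the promoter went with the factors beside MITF. Members with the 11-base element alone of the 3 elements had Smad2/3 with TGFB1 at 6.52% (3.47 to 11.9%) of 138, and members with an E-box alone at 19.4% (14.5 to 25.5%) of 196, a difference of 12.9 percentage points (5.55 to 19.7). JUNB with TGFB1 was at 34.8% and 50.5%, a difference of 15.7 points (4.94 to 25.9). For ATF3 with TGFB1 the values were 24.6% and 30.1%, and the interval of the difference included 0 (-4.38 to 14.8). H3K27ac in vehicle was at 93.5% and 99.0%, a difference of 5.50 points (1.48 to 11.0). Members with none of the elements had Smad2/3 at 16.8% and JUNB at 56.5% of 161, and the 28 with AACTTTAT had them at 21.4% and 67.9%. The 11-base element was chosen after these promoters were examined.

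Genes with a constant MITF site had the other factors at their ends more often than other acetylated genes. Of the 1249 acetylated genes with a constant site 62.3% (59.6 to 64.9%) had a JUNB summit within 1 kb of an end with TGFB1, and of 9993 acetylated genes without any MITF peak at an end 40.3% (39.4 to 41.3%) did, a difference of 21.9 points (19.1 to 24.8). In vehicle the JUNB shares were 32.7% and 19.1%. ATF3 with TGFB1 was at 44.2% and 29.9%. Smad2/3 with TGFB1 was at 23.3% (21.0 to 25.7%) and 14.7% (14.0 to 15.4%), a difference of 8.64 points (6.27 to 11.2). Genes that share a site are counted separately here, so the intervals are narrower than independent genes would give.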

How the data were processed

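Chromatin immunoprecipitation libraries of A375 cells for 5 antibodies in 2 treatments were analysed from their 10 peak lists. Reads were aligned with Bowtie to GRCh38 and peaks called with MACS2 2.0, per the submitters' processing notes. The control input and the handling of duplicates are not given in the sources used here. The authors deposited, for each peak, a fold enrichment ratio, the -log10 p and the -log10 q of the caller, and a score that was not used. The lowest -log10 q of the lists was near a q of 0.05.

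Peaks were compared with Python 3.11.15, pandas 2.3.3, numpy 2.4.6, scipy 1.17.1 and matplotlib 3.10.9, and the member overlaps were checked with bedtools 2.31.1. Shares carry 95% Wilson intervals and differences of shares 95% Newcombe intervals. Pileup and background were solved from the ratio and the -log10 p, with a pseudocount of 1, within 0.001 of the deposited -log10 p. Implied depth assumes that the shortest peak is the read extension, that the lowest solved background reflects the depth of the library, and a genome of 2.7 Gb. It ran from 6.37 to 47.7 M (mega) reads. Overlaps, intervals and pileups were tested on simulated data.

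Gene ends came from a RefSeq table of 19974 protein-coding genes. Promoter sequences came from a RefSeq table with windows for 15812 of them, and none was used from chromosome 8. No genome sequence was used, so sites outside the windows have no motif result.

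The members, gene lists and comparisons were chosen with earlier results of these data known, and the 11-base and AACTTTAT elements after the promoters had been examined. Named genes are the 12 members of highest -log10 p, up to 4 of each list, the 5 of highest Smad2/3 enrichment, the 4 highest and 4 lowest ratios, and 4 on each side of the 1 kb limit. Some genes that these rules name are not reported here. Other genes were named after their values were seen. Alternatives were stricter peaks, other overlap rules, other distances and shorter lists of the other antibodies.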

Additional observations from a re-analysis of the deposited data

How the results depend on the processing

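The number of members, their overlaps with the other antibodies, the E-box share and the gene list counts were recomputed under the alternatives. So were the differences in overlap to constant sites away from gene ends. This gave 215 values over 32 results, of which 169 moved by less than their counting interval (for gene counts, by less than 1.5 times) and 46 moved by more. The cause of these moves was not tested beyond the construction of each alternative. The differences in overlap between members and constant sites away from gene ends kept their sign, and no other difference between sets was recomputed. The share with H3K27ac, higher with TGFB1 than in vehicle by 0.384 points, was lower with the 5000 strongest peaks. The rise of JUNB and ATF3 nearly vanished there (values below). The splicing count was 1 of 30 at the lowest. A fold enrichment of at least 6 in both MITF lists left 626 members, with Smad2/3 (TGFB1) at 15.7% of them and 1 autophagy, 3 respiratory chain, 1 ribosomal, 1 splicing, 1 cell cycle, 1 TGF-beta, 0 AP-1 and 1 housekeeping gene. A -log10 q of at least 5 gave Smad2/3 at 16.0% and 1 autophagy, 1 ribosomal, 3 splicing and 1 housekeeping gene. Reciprocal overlap of 50% left 1 ribosomal and 0 AP-1 genes. A distance of 500 bp left 1 housekeeping gene, and 2 kb gave 4, with H3K27ac (TGFB1) at 92.7%. Taking the nearest gene alone left 3 splicing genes. The counts of the lysosomal, V-ATPase, nutrient sensing and endosomal lists stayed within 1.5 times under every alternative run.

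With the MITF summit required to lie inside the other peak, the shares in vehicle and with TGFB1 were 67.8 and 69.5% for H3K27ac, 14.1 and 37.3% for JUNB, and 6.15 and 20.7% for ATF3, and Smad2/3 with TGFB1 was at 12.8%. With the 5000 strongest peaks of each list they were 46.7 and 45.0%, 2.59 and 2.69%, 2.88 and 3.46%, and 6.72%. For the differences to constant sites away from gene ends these alternatives were added after the data were seen. They gave 37.8 and 36.6 points for H3K27ac in vehicle (summit inside, then 5000 peaks), 37.3 and 34.2 with TGFB1, -22.7 and -12.6 for JUNB in vehicle, and -9.39 (-13.2 to -5.56) and -11.5 (-13.5 to -9.51) for JUNB with TGFB1. The 5000 peaks gave -4.74 for ATF3 and -14.5 for Smad2/3 with TGFB1. The E-box share was 40.6% where the window had to hold the summit.

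The alternative of any summit within 1 kb gave the same values, since no interval was listed repeatedly. No paired analysis was possible because each antibody and treatment has 1 library, and for the same reason leaving a library out was not run. Sites at few reads, down to 7 with TGFB1, limit what can be said of any 1 weak site.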

Other observations

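Other letters in the promoter windows of the 540 members set them apart less. CCGGAAG, the letters of ETS factors, was in 24.6% (21.2 to 28.4%) of them and in 18% of acetylated windows without MITF, but TGFB1-only and vehicle-only sites had it at 25.8% and 22%, and both intervals of the difference included 0. GGGCGG, read by SP and KLF factors, was in 68.9% of the members and in 73.7% of the acetylated windows. CCAAT, read by NF-Y, was in 33.1% and 35.2%.

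The base composition of the windows was also compared. In the lowest, middle and highest group of all windows by GC content, CACGTG was in 39.4, 31.0 and 49.0% of windows with a constant site, against 4.43, 8.75 and 9.13% of other windows. The 11-base element (ACTACA, any 2 bases, TCC) was in 38.3, 31.3 and 20.9%, against 1.09, 2.7 and 1.22%, and AACTTTAT in 5.32, 6.45 and 2.41%, against 1.60, 0.267 and 0.113%. Each element was more frequent with a constant site in all 3 groups, and the 11-base element had its highest share in the group of lowest GC. The 11-base element and AACTTTAT were picked after these same promoters had been examined, so their values here are descriptions only.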
